A study of Rattus norvegicus with 8 samples.

Results

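The angiogenic growth factors and neuropilins described here are 9 genes, namely *Vegfa*, *Vegfb*, *Vegfc*, *Pgf*, *Angpt1*, *Angpt2*, *Hgf*, *Nrp1* and *Nrp2*, and they were taken by gene symbol from the deposited expression table. All 9 were found among the 32883 genes of that table, and all 9 were among the 13937 genes with enough reads to be tested. RNA of the right Achilles tendon was sequenced from 8 male Sprague-Dawley rats aged 8 to 10 weeks, wild type by their labels. The 4 rats of the 12 h p.r. (post-run) group ran on a treadmill for 1 h and were killed 12 h later, and the 4 rats of the naïve control (NC) group rested in their cages and were killed at the same time. The comparison asks which transcripts differ from rest at 12 h p.r., and its P values set the difference between groups against the spread between these rats. Each library is 1 tendon with no separation of cells, so fewer cells of a type and less RNA per cell cannot be told apart for any gene below.

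Secreted ligands of the vascular endothelial growth factor (VEGF) family act on receptor tyrosine kinases of blood and lymphatic endothelium, and neuropilins are co-receptors that bind both VEGF ligands and class 3 semaphorins. Angiopoietins act on the endothelial receptor encoded by *Tek*, where angiopoietin 1 is an agonist that stabilises vessels and angiopoietin 2 is released by endothelium and, depending on context, opposes it. Healthy tendon is sparsely vascularised, with vessels running mainly in the loose tissue between fascicles and around the tendon, and hepatocyte growth factor is a mesenchymal ligand of the receptor encoded by *Met*.

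Entries for 7 of the 9 genes were found in a RefSeq table of windows from 250 bases before to 50 bases after the annotated start (build GRCr8), and *Angpt1* and *Angpt2* had none. The 250 bases before the start are shown for *Vegfa*, the best known ligand of the family, and for *Vegfb*, the member with the widest spread between rats, with GC boxes (GGGCGG or its complement CCGCCC) in capitals. The *Vegfa* stretch is chr9:22452604-22452853 on the plus strand, and the *Vegfb* stretch is chr1:213607153-213607402 on the minus strand, both written 5′ to 3′ along the gene.
Vegfa: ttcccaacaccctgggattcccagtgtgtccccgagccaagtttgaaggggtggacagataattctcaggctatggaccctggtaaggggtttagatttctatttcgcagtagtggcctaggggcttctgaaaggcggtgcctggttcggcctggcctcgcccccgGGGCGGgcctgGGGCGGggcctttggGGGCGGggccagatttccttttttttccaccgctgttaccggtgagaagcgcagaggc
Vegfb: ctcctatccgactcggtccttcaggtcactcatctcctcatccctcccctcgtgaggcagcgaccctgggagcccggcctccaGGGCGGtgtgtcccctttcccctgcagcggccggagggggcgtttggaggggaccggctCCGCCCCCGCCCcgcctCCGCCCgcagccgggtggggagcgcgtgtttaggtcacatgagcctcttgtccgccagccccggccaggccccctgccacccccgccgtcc
The *Vegfa* window held 3 GC boxes and the *Vegfb* window 4, *Vegfc* and *Pgf* held 2 each, and those of *Nrp1*, *Nrp2* and *Hgf* held 0, where 33.1% of the 33469 windows in the table held at least 1. GC content was 63.3% for *Vegfa*, 73.7% for *Vegfb*, 73.0% for *Vegfc* and 66.7% for *Pgf*. Of the windows with 0 GC boxes, that of *Nrp1* had 66.3%, that of *Nrp2* 53.0% and that of *Hgf* 51.3%. The median over all windows was 51.7%. The core letters of a hypoxia response element were searched on both strands in both common forms. The form ACGTG was in 0 of the 7 windows (19.3% of all windows hold it). The other form, GCGTG, was found 1 time each in *Vegfb* and *Pgf* and 2 times each in *Nrp1* and *Nrp2* (29.7% of all windows hold it). These are letter matches in a short window, and their absence says nothing of more distant sites.

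At 12 h p.r. none of the 9 genes passed the test. Fitted by edgeR (quasi-likelihood) and adjusted by Benjamini-Hochberg across the 13937 tested genes, 0 of 9 had an adjusted P value under 0.05 (0.00718% of all tested genes did), 0 of 9 had an unadjusted P value under 0.05 (9.51% of all genes did), and for 0 of 9 were the groups apart with no overlap (6.06% of all genes). An absolute log2 fold change of 0.5 or more was seen in 0 of 9 (10.2% of all genes). Point estimates were above NC for 3 genes and below for 6, with a median log2 fold change of -0.07 against 0.02 over all tested genes. The lowest adjusted P value of the 9 was 0.531, for *Angpt2*. At this spread the 95% intervals of all 9 excluded a doubling except that of *Vegfb*, and excluded a halving except that of *Pgf*, whose lower bound was -1.002 on the log2 scale.

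**Figure D1:**
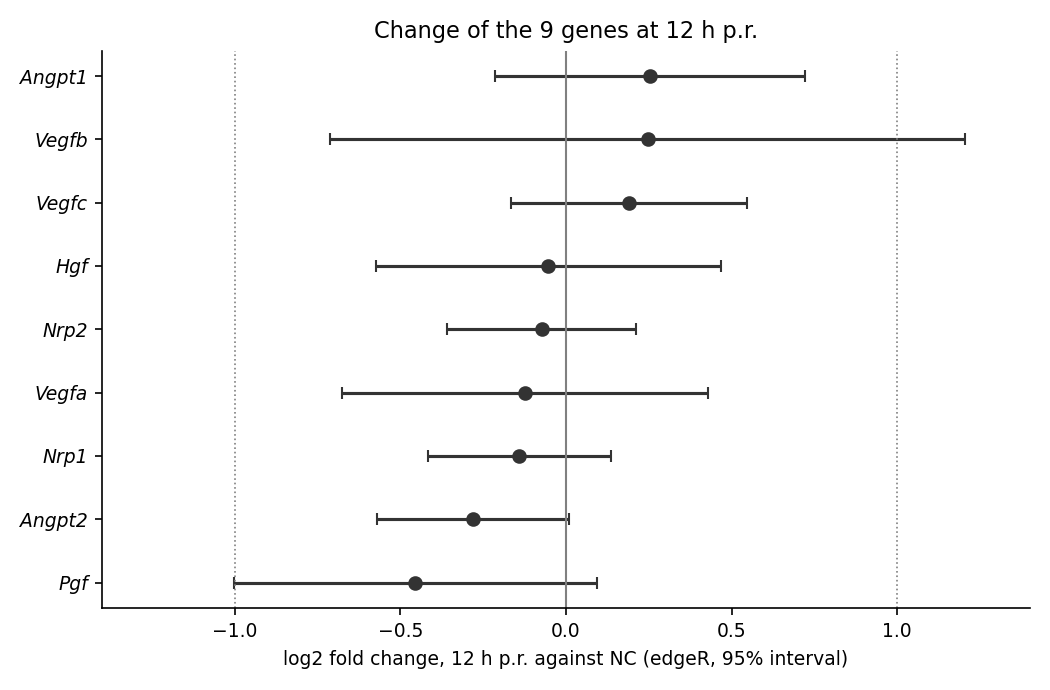
Log2 fold change of each of the 9 genes at 12 h p.r. against NC (horizontal axis) with its 95% interval from edgeR, with dotted lines at -1 and 1. Every interval includes 0, and that of *Vegfb*, from -0.711 to 1.205, is the widest.

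Levels of different genes were compared as FPKM, the authors' fragments scaled by gene length and by library depth. *Angpt2* was the most abundant of the 9 on this scale, at 38.0 ± 6.30 FPKM (SD, n = 8 rats of both groups), above 85.2% of tested genes. Then came *Nrp1* at 27.6 ± 3.22 and *Vegfa* at 25.6 ± 7.41, followed by *Vegfb* at 12.9 ± 6.10, *Nrp2* at 12.4 ± 1.54 and *Vegfc* at 9.54 ± 1.62 FPKM. The lowest levels were those of *Pgf* at 6.54 ± 1.90, *Angpt1* at 5.84 ± 1.33 and *Hgf* at 1.68 ± 0.360 FPKM, the last above only 13.9% of tested genes. Of the 8 neighbouring pairs in this order, 5 differed within rats by an exact sign-flip permutation test of the log2 FPKM ratio (two-sided, adjusted over the 8 pairs). The order came from the means of these same rats, so the values tested also chose the pairs. *Angpt2* exceeded *Nrp1*, *Vegfa* exceeded *Vegfb* and *Angpt1* exceeded *Hgf* in 8 of 8 rats (adjusted exact permutation P value 0.0208 each), while *Nrp2* over *Vegfc* (0.0313) and *Vegfc* over *Pgf* (0.0375) held in 7 of 8 rats. With 1 rat left out the log2 ratios of the last 2 pairs stayed between 0.32 and 0.46 and between 0.52 and 0.71, while 3 or 4 pairs passed adjustment, where the smallest P value that 7 rats allow is 0.0156. The neighbours *Nrp1* and *Vegfa*, *Vegfb* and *Nrp2*, and *Pgf* and *Angpt1* did not differ beyond their spread, with adjusted exact permutation P values of 0.448, 0.789 and 0.696. These tests show how steady a ratio was between rats on a scale that depends on the gene lengths used. In CPM, which is not scaled by length, *Nrp1* was above *Angpt2*. Mean CPM was 147 and 84.2 at 12 h p.r., and 162 and 102 in NC. *Angpt1* and *Hgf* stood at 12.1 and 9.90 CPM at 12 h p.r., and at 10.1 and 10.2 CPM in NC.

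Among the VEGF ligands, *Vegfa*, the main inducer of endothelial growth and permeability, measured 27.7, 21.8, 28.8 and 19.4 FPKM in 12 h p.r. rats 1 to 4 and 22.4, 41.9, 20.1 and 22.6 FPKM in NC rats 1 to 4. NC rat 2 stood above all other rats, and the 7 others formed 1 overlapping range. The log2 fold change was -0.12 ± 0.24 (SE; 95% interval -0.68 to 0.43, adjusted P value 0.901), and without NC rat 2 the estimate turned to 0.18, so its direction rests on that rat. *Vegfa* took the largest FPKM share of the 5 VEGF family ligands measured, 44.1% ± 3.38 (SD) at 12 h p.r. and 46.3% ± 5.51 in NC, and stayed between 39.4% and 53.4% in all 8 rats. The summed FPKM of those 5 ligands was 55.2 ± 8.94 (SD) at 12 h p.r. and 56.6 ± 14.6 in NC.

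*Vegfb*, a ligand of the receptor encoded by *Flt1* that is abundant in heart and skeletal muscle, varied most between rats. It measured 15.5, 7.18, 24.2 and 8.94 FPKM at 12 h p.r. and 12.1, 17.9, 11.5 and 5.74 FPKM in NC, a 4.21-fold range whose top was 12 h p.r. rat 3 and whose bottom was NC rat 4. Its coefficient of variation over the 8 rats, 47.4%, was above that of 90.4% of tested genes. The groups overlapped widely, and the log2 fold change was 0.25 ± 0.42 (SE; 95% interval -0.711 to 1.205, adjusted P value 0.885).

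Fast skeletal muscle markers moved with *Vegfb* across rats. The summed level of the 8 tested fast muscle markers was 56866 CPM (counts scaled to a common library total of 1000000) in 12 h p.r. rat 3, between 1662 and 2973 CPM in its 3 group mates and between 1288 and 10020 CPM among NC rats, with the minimum in NC rat 4. Over the 8 rats, log2 CPM of *Vegfb* followed the mean of those markers with Pearson's r of 0.893 (exact permutation P value 0.00298, adjusted over 36 relations 0.0723) and Spearman's rho of 0.857 (exact permutation P value 0.0107). Leaving out the 2 rats farthest from the median marker level gave r = 0.682, and within groups r was 0.891. With the marker mean as a covariate the log2 fold change of *Vegfb* was 0.05 in place of 0.25, and without 12 h p.r. rat 3 it was -0.15. The part of muscle tissue in the *Vegfb* level was not tested beyond these values.

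**Figure D2:**
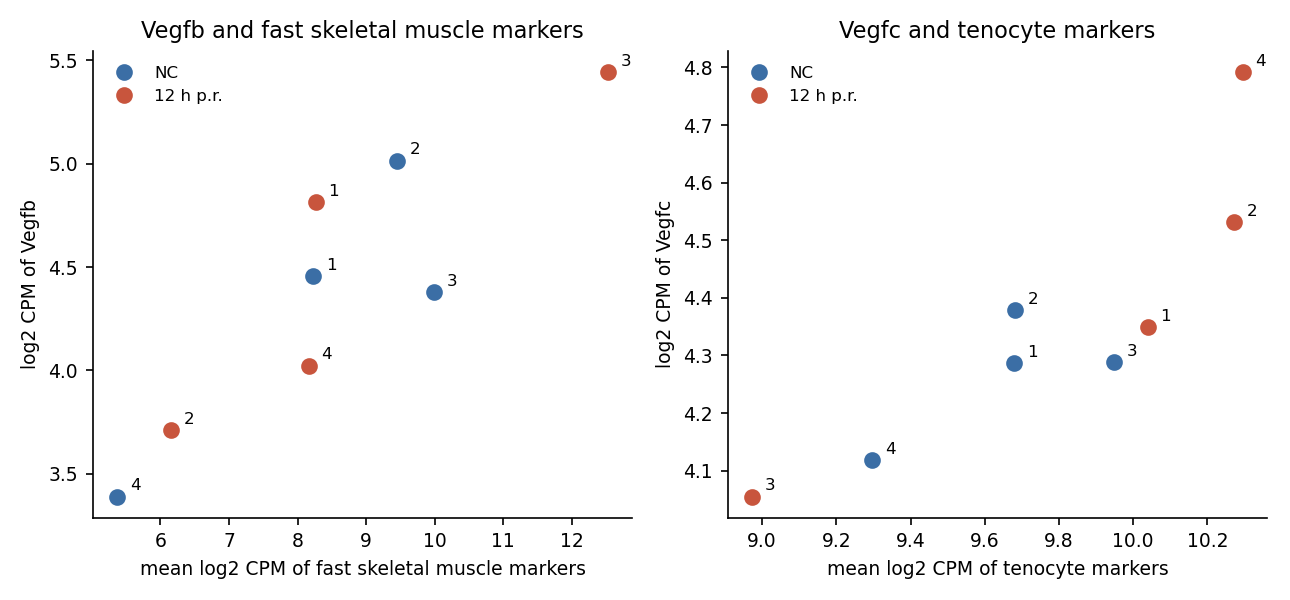
Each point is 1 rat, numbered within its group. Left, log2 CPM of *Vegfb* against mean log2 CPM of fast skeletal muscle markers, where 12 h p.r. rat 3 is highest and NC rat 4 lowest on both axes. Right, log2 CPM of *Vegfc* against mean log2 CPM of tenocyte markers, where 12 h p.r. rats 2 and 4 are highest and 12 h p.r. rat 3 lowest on both axes.

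*Vegfc*, the main ligand of lymphatic endothelium, measured 9.36, 10.7, 7.68 and 12.8 FPKM at 12 h p.r. and 9.06, 9.64, 9.03 and 8.04 FPKM in NC. Rats 2 and 4 of the 12 h p.r. group lay above every NC rat, and rat 3 lay below every NC rat. Its log2 fold change was 0.19 ± 0.16 (SE; 95% interval -0.16 to 0.55, adjusted P value 0.731), and it ran from 0.055 without 12 h p.r. rat 4 to 0.31 without 12 h p.r. rat 3. *Vegfc* followed the mean of 9 tenocyte markers, the tendon cell genes *Scx*, *Tnmd* and *Mkx* among them, with r = 0.875 over the 8 rats (exact permutation P value 0.00402, adjusted over 36 relations 0.0723), rho = 0.929 (exact permutation P value 0.00223), r = 0.760 without the 2 farthest rats and r = 0.865 within groups. Those markers were lowest in 12 h p.r. rat 3, the rat with the most muscle RNA, where they summed to 20104 CPM, the remaining 7 rats lying between 34278 and 56114 CPM. Neither relation passed adjustment, and the other 34 relations of the 9 genes to endothelial, mural, tenocyte and fast muscle markers had unadjusted exact permutation P values of Pearson's r above 0.05. For Spearman's rho the adjusted exact permutation P values were 0.193 for *Vegfb* with fast muscle markers and 0.0804 for *Vegfc* with tenocyte markers. *Angpt2* ran opposite to the tenocyte markers by rho (-0.738, exact permutation P value 0.0458, adjusted 0.550), with r = -0.626.

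*Pgf*, encoding placental growth factor, which binds the receptor encoded by *Flt1*, had the largest estimate of the 9. It measured 6.55, 5.37, 3.72 and 6.34 FPKM at 12 h p.r. and 5.13, 8.14, 7.22 and 9.83 FPKM in NC. All 4 running rats were below the NC mean of 7.58 FPKM, yet NC rat 1 lay inside the running range. The log2 fold change was -0.45 ± 0.24 (SE; 95% interval -1.002 to 0.093, P value 0.0931, adjusted 0.585), and the gene was counted with 49 to 181 reads per rat, the fewest of any member in a library. Without NC rat 1, edgeR gave -0.60 with an unadjusted P value of 0.0268 (adjusted 0.634), and without NC rat 4 or 12 h p.r. rat 3 it gave an estimate nearer 0, at -0.30 and -0.31 (adjusted 0.880 and 0.649).

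Of the angiopoietins, *Angpt2* came closest to the threshold. It measured 31.1, 36.2, 37.6 and 32.0 FPKM at 12 h p.r. (34.2 ± 3.13, SD) and 43.2, 40.5, 33.6 and 49.8 FPKM in NC (41.8 ± 6.68, SD). Every running rat was below the NC mean and 2 of them were below all NC rats, with NC rat 3 inside the running range. The fold against NC was 0.822 (95% interval 0.673 to 1.005), or -0.28 ± 0.13 (SE) on the log2 scale, with an edgeR P value of 0.0550 and adjusted P value of 0.531. An exact two-sided permutation test over the 8 rats gave a P value of 0.0857, where the smallest this design can give is 0.0286. Its unadjusted P value was under 0.05 in 5 of 20 alternative fits, among them DESeq2 (0.0495) and the fit without NC rat 3 (0.0114), and above it in the others, among them the fit without NC rat 4 (-0.19 on the log2 scale, adjusted P value 0.848). Its adjusted P value was 0.434 or higher in all 20 alternatives.

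*Angpt1* measured 6.08, 6.30, 8.46 and 4.59 FPKM at 12 h p.r. and 6.22, 4.52, 6.04 and 4.53 FPKM in NC. Rats 2 and 3 of the running group exceeded all NC rats, and rat 4 sat with the lowest NC rats. Its log2 fold change was 0.25 ± 0.21 (SE; 95% interval -0.21 to 0.72, adjusted P value 0.726), and it was 0.085 without 12 h p.r. rat 3 and 0.39 without 12 h p.r. rat 4. The ratio of *Angpt2* to *Angpt1* FPKM within each rat had a geometric mean of 5.49 at 12 h p.r. (range 4.44 to 6.97) and 7.85 in NC (range 5.57 to 11.0), a log2 difference of -0.52 (exact permutation P value 0.143, adjusted over 6 ratios 0.651). *Angpt2* was thus the more abundant angiopoietin in every rat of both groups.

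*Hgf* was read in each rat but remained the least abundant by FPKM, at 1.86, 1.58, 1.25 and 1.89 FPKM at 12 h p.r. and 1.70, 1.06, 2.01 and 2.06 FPKM in NC. NC rat 2 and 12 h p.r. rat 3 were lowest, and the groups overlapped. The log2 fold change was -0.05 ± 0.23 (SE; 95% interval -0.57 to 0.47, adjusted P value 0.959).

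**Figure D3:**
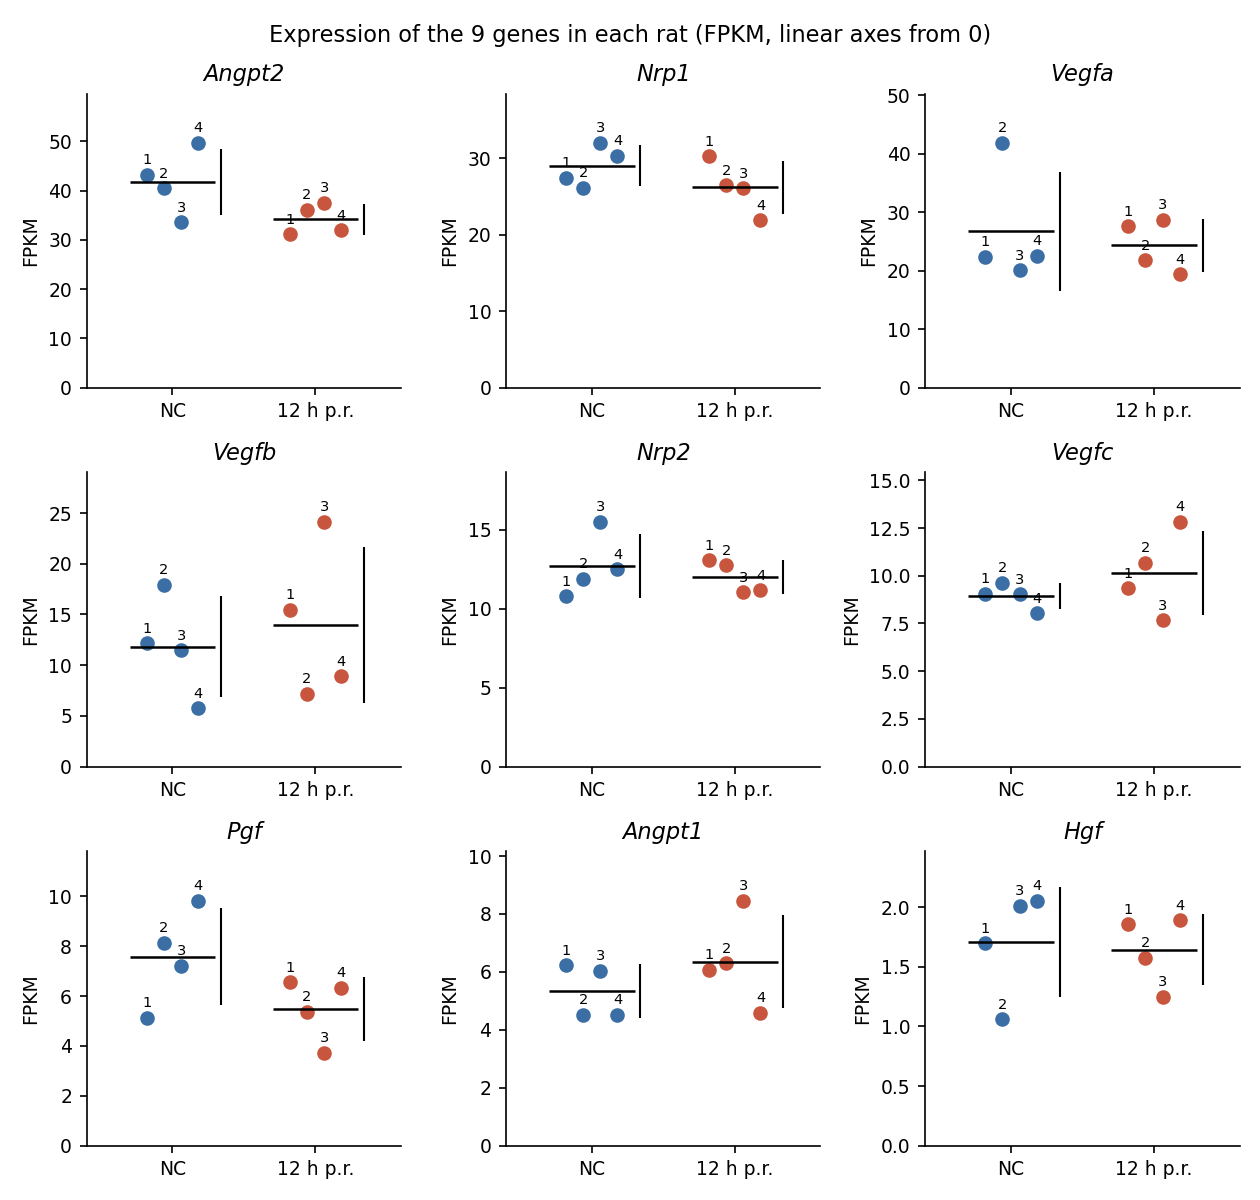
FPKM of each of the 9 genes (vertical axes from 0) in NC and 12 h p.r. rats, each point 1 rat with its number, horizontal lines for group means and vertical bars for ± 1 SD. The groups overlap for every gene, NC rat 2 stands apart for *Vegfa*, and 12 h p.r. rat 3 is highest for *Vegfb* and *Angpt1* and lowest for *Pgf* and *Vegfc*.

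The neuropilins were the steadiest of the 9 genes. *Nrp1*, the co-receptor of arterial endothelium, measured 30.3, 26.4, 26.1 and 21.9 FPKM at 12 h p.r. and 27.4, 26.1, 32.0 and 30.3 FPKM in NC, with 12 h p.r. rat 4 lowest and the groups overlapping. *Nrp2*, the co-receptor of venous and lymphatic endothelium, measured 13.1, 12.8, 11.0 and 11.2 FPKM at 12 h p.r., all within the NC values of 10.8, 11.9, 15.5 and 12.5 FPKM. The log2 fold changes were -0.14 ± 0.12 (SE; 95% interval -0.42 to 0.14, adjusted P value 0.747) for *Nrp1* and -0.07 ± 0.13 (SE; 95% interval -0.36 to 0.21, adjusted P value 0.885) for *Nrp2*, which became 0.04 without NC rat 3. The *Nrp1* estimate was -0.064 without 12 h p.r. rat 4. Their coefficients of variation over the 8 rats were 11.7% and 12.5%, against a median of 17.3% over all tested genes, and they were counted with 1128 to 2381 reads per rat for *Nrp1*, the most of any member, and 593 to 1316 for *Nrp2*. The ratio of *Nrp2* to *Nrp1* FPKM was 0.461 at 12 h p.r. and 0.435 in NC (geometric means; log2 difference 0.08, exact permutation P value 0.429, adjusted 0.651).

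The remaining ratios, each set against *Vegfa* in the same rat, differed by less than their spread between rats could resolve. The *Vegfb* to *Vegfa* ratio was 0.517 at 12 h p.r. and 0.429 in NC, and the *Vegfc* to *Vegfa* ratio was 0.414 and 0.349 (adjusted exact permutation P value 0.651 for both). For *Pgf* to *Vegfa* the values were 0.223 and 0.289 (0.651), and for *Hgf* to *Vegfa* 0.0674 and 0.0648 (0.943). All 6 ratios overlapped between the groups.

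**Figure D4:**
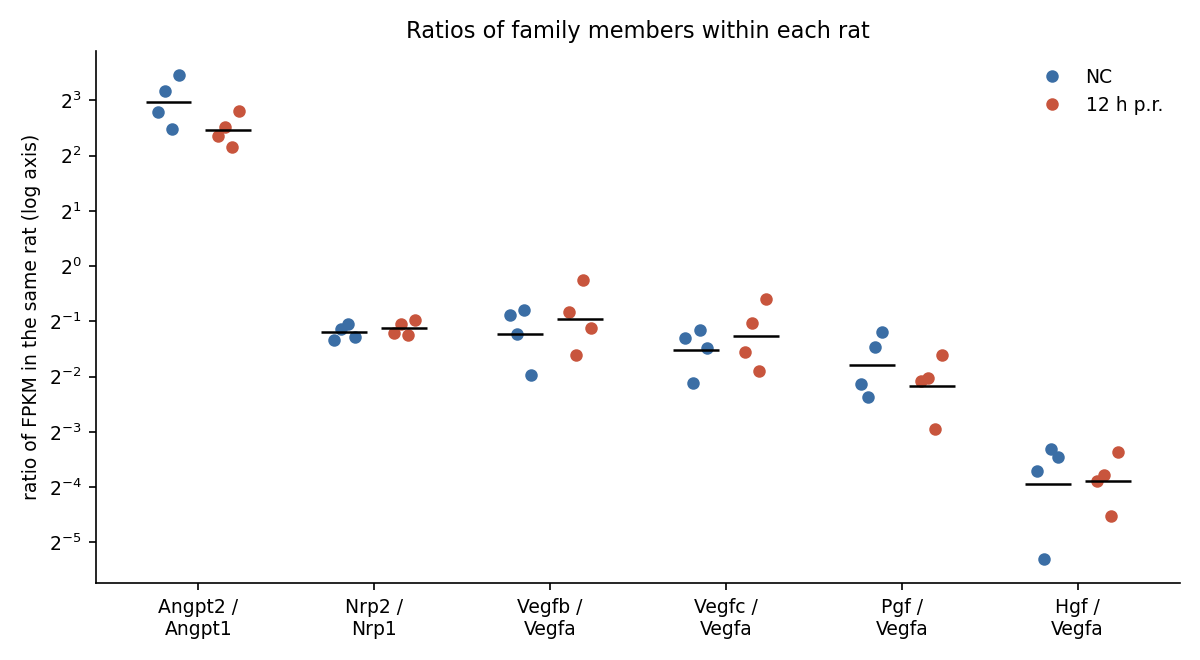
Ratio of FPKM of 2 genes within each rat (logarithmic axis) for 6 pairs in NC and 12 h p.r. rats, with a line at each group's geometric mean. The ratio of *Angpt2* to *Angpt1* is above 4 in every rat, and the groups overlap for every pair.

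Among themselves, 3 of the 36 pairs of members had an unadjusted exact permutation P value of Pearson's r under 0.05 over the 8 rats, and 0 passed adjustment. *Pgf* and *Angpt1* ran opposite (r = -0.857, exact permutation P value 0.00910, adjusted 0.230, rho = -0.905), with r = -0.59 without the 2 rats farthest from the median of *Pgf*. The neuropilins ran together (r = 0.720, exact permutation P value 0.0444, adjusted 0.533, rho = 0.690, r = 0.566 without the 2 farthest). *Vegfa* and *Hgf* had r = -0.829 (exact permutation P value 0.0128, adjusted 0.230) but r = -0.08 without the 2 farthest rats, so that relation rests on those rats.

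The genes whose log2 CPM most resembled that of each member over the 8 rats, of 13936 compared, are given as a description with r and no test. Picked as the highest of so many, these r were high for every member, from 0.930 to 0.985. For *Vegfb* they were *Pcca* (0.977), a subunit of propionyl-CoA carboxylase, and *Uqcrc1* (0.975), a core subunit of respiratory complex III. For *Angpt2* they were *Ippk* (0.985) and *Rnf19a* (0.947), for *Angpt1* *Bcl7a* (0.974) and *Hist2h2be* (0.964), and for *Pgf* *Usp54* (0.967) and *Parp8* (0.962). *Vegfc* was closest to *Fxyd5* (0.967) and *Rab7b* (0.965), *Nrp1* to *E2f3* (0.970) and AABR07068161.1 (0.962), and *Nrp2* to *Ptprz1* (0.964) and *Taf1* (0.950). *Hgf* was closest to *Pld3* (0.971) and *Enox1* (0.965), and *Vegfa*, with the lowest top value of the 9, to *Fer1l5* (0.938) and AABR07001905.2 (0.930).

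The receptors of these ligands were all measured, and none passed adjustment. On the FPKM scale the angiopoietin receptor genes led, *Tie1* at 57.2 ± 7.99 (SD, n = 8) and *Tek* at 53.4 ± 4.74, followed by the VEGF receptor genes *Flt1* at 17.6 ± 1.62, *Kdr* at 14.0 ± 0.994 and *Flt4*, the lymphatic one, at 8.57 ± 1.94. *Met*, the receptor gene of *Hgf*, stood at 4.84 ± 0.669 FPKM. *Tie1*, the orphan partner of the angiopoietin receptor, measured 267, 266, 316 and 315 CPM at 12 h p.r. and 232, 221, 258 and 229 CPM in NC, with no overlap (log2 fold change 0.31 ± 0.11, SE; unadjusted P value 0.0193, adjusted 0.452). The log2 fold changes of the other receptors were -0.12 for *Tek*, -0.01 for *Flt1*, 0.09 for *Kdr*, 0.27 for *Flt4* and 0.00 for *Met*, whose sign differed with the scaling, and each of these 5 overlapped between groups. Of 11 endothelial markers that exclude these receptors, 3 were higher and 1 was lower at the unadjusted threshold (5.44% and 4.08% of all tested genes). By edgeR 0 passed adjustment, while the DESeq2 adjusted P value was 0.00835 for *Eng* and 0.0148 for *Egfl7*. The groups did not overlap for 3 of the 11 (6.06% of all tested genes). The 11 markers had a summed level of 1554 to 1995 CPM at 12 h p.r. and 1514 to 1702 CPM in NC, which overlap. With their mean as a covariate *Tie1* was 0.32 (adjusted P value 0.712) in place of 0.31, while *Flt1* was -0.18 in place of -0.01, *Tek* -0.22 in place of -0.12 and *Flt4* 0.095 in place of 0.27.

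Across 7 lists of pathway genes that hold the receptors, semaphorins and plexins, other ligands, activators of *Hgf*, regulators of *Vegfa* transcription, endothelial response genes and inhibitors of angiogenesis, 51 genes were tested. Of these, 11 had an unadjusted P value under 0.05 (21.6%, beside 9.51% of all tested genes), of which 7 had higher and 4 lower levels in the running rats (5.44% and 4.08% of all genes), and 0 passed adjustment by edgeR. The groups did not overlap for 6 of the 51 (6.06% of all tested genes), and the median log2 fold change was 0.10 against 0.02 over all genes. Several of these genes are expressed by the same cells. The lists were also chosen with earlier results of these data known, so the share cannot be read as an excess. It was not tested.

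Most class 3 semaphorins bind a neuropilin and signal through a plexin. Of the 12 semaphorin and plexin genes 2 were higher and 1 lower at the unadjusted threshold (5.44% and 4.08% of all tested genes). *Plxnd1*, the endothelial plexin, measured 308, 281, 319 and 261 CPM at 12 h p.r. and 169, 227, 197 and 200 CPM in NC, with no overlap. Its log2 fold change was 0.56 ± 0.12 (SE; edgeR P value 0.00123, adjusted 0.385), and the DESeq2 adjusted P value was 0.00466, so its call depends on the tool. *Sema3c*, a semaphorin that signals through neuropilins and that plexin, measured 136, 152, 114 and 166 CPM at 12 h p.r. and 272, 189, 191 and 183 CPM in NC (log2 fold change -0.55, adjusted P value 0.433). *Sema3f*, a ligand of neuropilin 2, had means of 76.1 CPM at 12 h p.r. and 54.9 CPM in NC (0.47 on the log2 scale, adjusted P value 0.433), and 0.23 with the endothelial marker covariate.

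Of the 8 regulators of *Vegfa* transcription, *Vhl*, which marks hypoxia-inducible factors for degradation, had a log2 fold change of -0.23 (39.0 and 45.8 CPM, adjusted P value 0.488). *Ppargc1a*, a coactivator of mitochondrial genes in muscle, had 1.88 (3.93 and 1.05 CPM, adjusted P value 0.478), where 12 h p.r. rat 3 read 11.1 CPM and the other 3 running rats 1.502 to 1.581 CPM, and without that rat the log2 fold change was 0.54. The hypoxia-inducible factor genes *Hif1a* and *Epas1*, shown for reference after their values were seen, had log2 fold changes of 0.17 and 0.10 (adjusted P values 0.772 and 0.813).

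Endothelial response genes split in direction, with 2 of 10 higher and 2 lower at the unadjusted threshold (5.44% and 4.08% of all tested genes). *Aplnr*, the apelin receptor gene, measured 63.4, 71.0, 59.3 and 66.0 CPM at 12 h p.r. and 27.7, 56.4, 40.8 and 42.0 CPM in NC, with no overlap (log2 fold change 0.64, adjusted P value 0.432). *Esm1*, a gene of VEGF-stimulated tip cells, measured 6.60, 11.2, 6.43 and 13.9 CPM at 12 h p.r. and 17.5, 33.0, 14.3 and 19.2 CPM in NC, with no overlap in the opposite direction (-1.13, adjusted P value 0.432). *Plvap*, of fenestrated endothelium, had 0.41 (517 and 389 CPM, adjusted P value 0.477), or 0.23 with that covariate, and *Egr3*, an immediate early transcription factor, had -1.26 (4.82 and 11.4 CPM, adjusted P value 0.507), with NC rat 3 at 22.1 CPM, the other NC rats at 6.13 to 11.3 CPM, and an estimate of -0.72 without NC rat 3. Of the 7 inhibitors, *Vash1*, a vasohibin made by endothelium, had 0.60 (17.9 and 11.8 CPM, adjusted P value 0.433). The *Vegfd* and *Angpt4* values that follow were also chosen after they were seen. None of the 3 other ligands and none of the 5 tested activators of *Hgf* had an unadjusted P value under 0.05, and among the former *Vegfd* had a log2 fold change of -0.30 and *Angpt4* of -0.69 (unadjusted P values 0.354 and 0.0813, adjusted 0.783 and 0.576).

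**Figure D5:**
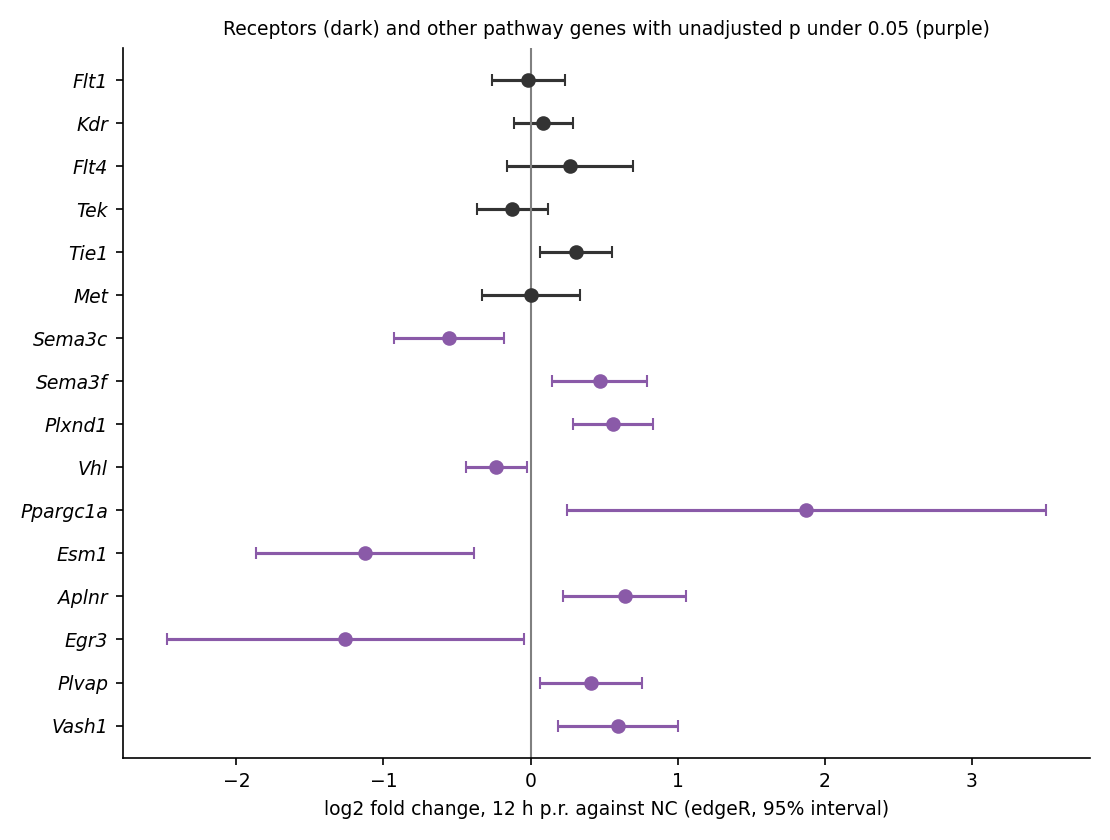
Log2 fold change at 12 h p.r. against NC (horizontal axis) with its 95% edgeR interval for the 6 receptor genes (dark) and for the 10 other pathway genes with an unadjusted P value under 0.05 (purple). The purple genes were chosen by that P value, so their intervals exclude 0 by construction, and 0 of the 16 passed adjustment.

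Depth and tissue were as follows for all results above. Total counts ran from 7350509 to 10648648 reads per library at 12 h p.r. and from 8385779 to 12951397 in NC. Markers of tendon cells were present in every rat, with *Scx* at 17.9 to 53.2 FPKM, *Tnmd* at 167 to 293 FPKM and *Col1a1* at 1897 to 6372 FPKM. Of the 9 tenocyte markers 6 had estimates above NC and 3 below. At the unadjusted threshold 3 were higher (5.44% of all tested genes), and 0 passed adjustment by edgeR. Their median log2 fold change was 0.39, and their mean log2 CPM gave an exact permutation P value of 0.514. Muscle RNA was present too and differed between rats. The 5 slow muscle markers summed to 4.66 to 1274 CPM at 12 h p.r. and 721 to 2081 CPM in NC, which overlap. All 5 had estimates below NC, 1 at the unadjusted threshold (4.08% of all tested genes), with a median log2 fold change of -1.84. Their mean log2 CPM was 3.95 at 12 h p.r. and 7.46 in NC (exact permutation P value 0.0857). Mean log2 CPM of cartilage and bone markers was 6.77 in NC rat 3 and 5.36 in 12 h p.r. rat 1, against 0.22 to 1.63 in the other rats. Of the 10 mural cell markers, 10 had estimates above NC, 1 at the unadjusted threshold (5.44% of all tested genes). They summed to 2117 to 2775 CPM at 12 h p.r. and 1833 to 2418 CPM in NC. Of 10 leukocyte markers 9 had estimates below NC, 0 at the unadjusted threshold (4.08% of all tested genes). That list summed to 560 to 2587 and 803 to 3678 CPM. Median log2 fold changes of the mural and leukocyte lists were 0.26 and -0.30, against 0.02 over all tested genes. Both sums overlapped between groups, and the mean log2 CPM of the mural and leukocyte lists gave exact permutation P values of 0.143 and 0.343. The part of slow muscle, tenocyte, mural and leukocyte markers in the pathway gene values was not tested. Leaving out both 12 h p.r. rat 3 and NC rat 2 left 0 of the 9 genes past adjustment.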

How the data were processed

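Per the labels and the study's methods, poly(A) RNA libraries from 8 tendons were aligned to Rnor_6.0 with HISAT2 2.1.0 and counted per gene with featureCounts 1.6.3, and the handling of multi-mapping reads and strand in counting is not given in the sources used here. The authors deposited raw counts per gene and FPKM values, which the authors normalized with DESeq2 1.30.1. A deposited table of their own comparison (log2 fold changes and P values) was not used. Counts were tested with edgeR 4.0.16 (quasi-likelihood, TMM factors, filterByExpr) in R 4.3.3, with DESeq2 1.42.0 and limma 3.58.1 as alternatives, and the code was tested on simulated counts. FPKM served to compare genes, and log2 FPKM ratios within rats and correlations were tested by exact permutation in Python 3.11.15. CPM are counts scaled to a TMM-adjusted library total of 1000000. Total counts ran from 7350509 to 12951397, and replicates differed beyond sampling noise. The DESeq2 size factors of these counts matched the scaling of the FPKM values. A same-numbered pair of rats is not 1 animal, and their deviations correlated between -0.19 and 0.12, so numbers were not treated as pairs. The members and gene lists were chosen with earlier results of these data known. Genes named are the 9 members, the 6 receptors, other pathway genes with an unadjusted P value under 0.05, and the 2 genes most correlated with each member, besides *Hif1a*, *Epas1*, *Vegfd*, *Angpt4* and a few markers chosen after their values were seen. Alternatives were other scalings (RLE, upper quartile), filters, tools and FPKM pseudocounts (1 and 0.1), robust estimation, a replicate block, muscle or endothelial marker means as covariates, each rat left out, and, chosen after seeing the data, 12 h p.r. rat 3 and NC rat 2 left out together (the highest mean of fast and of slow muscle markers). Promoter sequences come from RefSeq on GRCr8, another build than that of the files.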

Additional observations from a re-analysis of the deposited data

Results flagged for a closer look

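In 6 of 80 groups of 4 rats, 1 rat lay farther from the others than Dixon's 95% criterion allows, where chance gives about 4. For *Vegfa*, NC rat 2 was highest at 7.23 on the log2(CPM + 0.5) scale, against 6.17 to 6.33 in the other NC rats. *Met* was lowest in NC rat 1, at 4.29 against 4.67 to 4.73, and *Sema3c* was highest in the same rat, at 8.09 against 7.52 to 7.58. *Ppargc1a* was highest in 12 h p.r. rat 3, at 3.53 against 1.00 to 1.06, and *Plvap* was lowest in 12 h p.r. rat 2, at 8.56 against 9.11 to 9.18. The mean log2 CPM of cartilage and bone markers was highest in NC rat 3, at 6.77 against 1.15 to 1.39.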

How the results depend on the processing

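Over 20 alternatives, 0 of the 9 genes passed adjustment in any, with a lowest adjusted P value of 0.434. The count of members with an unadjusted P value under 0.05 was 1 (*Angpt2*) with DESeq2, with upper-quartile factors and with no filter, 1 (*Vegfc*) without 12 h p.r. rat 3 and NC rat 2 together, and 0 to 2 when 1 rat was left out, with 2 (*Vegfc* and *Angpt2*) without 12 h p.r. rat 3, 1 (*Pgf*) without NC rat 1 and 1 (*Angpt2*) without NC rat 3. Over all genes, 1 passed adjustment by edgeR, against 96 with DESeq2, 0 with limma on log2(FPKM + 1), 3 with limma on log2(FPKM + 0.1), 0 with the fast muscle covariate, 0 without those 2 rats and 0 to 0 when 1 rat was left out. The unadjusted count of 1326 ran from 879 (without NC rat 4) to 1580. Of the pathway genes, 11 were under the unadjusted threshold, 6 with the endothelial covariate and 8 to 15 with 1 rat left out, and 1 (*Plxnd1*) passed adjustment with DESeq2. The count of neighbouring levels that differed, 5 of 8, was 3 to 4 with 1 rat left out, where fewer rats raise the smallest P value.

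Rat numbers do not mark pairs, and the replicate block gave 0 genes past adjustment, 974 under the unadjusted threshold and 0 members.

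Directions turned in these cases. With 1 rat left out, *Vegfa* ran from -0.24 to 0.18 (above 0 without NC rat 2), *Vegfb* from -0.15 (without 12 h p.r. rat 3) to 0.51, *Nrp2* from -0.14 to 0.037 (without NC rat 3), *Hgf* from -0.22 to 0.057 (above 0 without 12 h p.r. rat 3, NC rat 3 or NC rat 4), *Flt1* from -0.066 to 0.039 (above 0 without 12 h p.r. rat 2, 12 h p.r. rat 4 or NC rat 4) and *Met* from -0.093 to 0.066. Without 12 h p.r. rat 3 and NC rat 2 together *Vegfa* was 0.091 and *Met* -0.031, and with the endothelial covariate *Vegfb* was -0.26. *Met*, near 0, was -0.0037 with DESeq2, -0.0036 with RLE factors, -0.0017 with upper-quartile factors, -0.0037 with no filter, and -0.0039 and -0.0048 with limma (pseudocounts 1 and 0.1). The log2 difference of the *Hgf* to *Vegfa* ratio ran from -0.39 to 0.27 with 1 rat left out, below 0 without NC rat 2 or 12 h p.r. rat 4. The log2 ratio of *Vegfb* to *Nrp2* ran from -0.24 to 0.077, and that of *Pgf* to *Angpt1* from -0.0026 to 0.33. The cause of these shifts was not tested.

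With 4 rats a group, *Vegfb* could only be bounded between a fold of 0.611 and 2.30, and *Hgf* and *Pgf* rest on as few as 52 and 49 reads.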
